A study of Mus musculus with 13 samples.

Results

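The genes described here are 35 genes of cholesterol synthesis, uptake and transport, out of 25965 genes in the deposited table of adult mouse testis RNA. They were chosen by symbol: 19 genes of sterol synthesis in pathway order, 7 regulators, and 9 genes of cholesterol uptake, storage and export. The table lists 34 of them under the symbol used here, and Msmo1 stands under its older symbol Sc4mol. The rule used symbols only, with no limit on measured values, and all 35 had reads in each of the 13 libraries. RNA came from whole testes of mice aged 15 weeks, and the question was what Wfdc15a, a gene for a small protein with a whey acidic protein domain, does in spermatogenesis. By genotype label, 6 libraries came from Wfdc15a knockouts (KO), 4 from heterozygotes (Het) and 3 from wild-type mice (WT), with Het and WT together as the control (n = 7). What was deleted in the allele, the strain and any treatment are not stated in the labels or design text, and each library is taken as a separate mouse because the design text counts mice. Titles also carry a number of unstated meaning: it is 1 for KO replicates 1 to 3 and Het replicate 1, and 2 for KO replicates 4 to 6, Het replicates 2 to 4 and all WT replicates. The libraries had 4.22 to 10.1 M reads in listed genes (median 6.81 M), and 1 read was worth 0.0899 to 0.222 RPM (reads after each library was scaled to the same total).

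Wfdc15a itself averaged 44.6 ± 21.8 RPM in the libraries labelled KO (SD, n = 6), against 65.5 ± 12.5 RPM in control (n = 7), a log2 difference of -0.66 (limma adjusted p = 0.0348). It was low in those of title number 1, at 28.1 ± 7.60 RPM (n = 3), and stood at 61.2 ± 17.7 RPM (n = 3) in those of number 2, which overlap the controls. Of these, KO replicate 5 (48.1 RPM) was below every control, and KO replicates 4 and 6 (54.1 and 81.3 RPM) were not. The RNA level therefore does not bear out the label of KO replicates 4 to 6. As what was deleted is not stated, it does not contradict the label either. Directions are given throughout for the libraries by their label, KO against control. The defining markers of testis cell types had reads: none of 54 markers of 8 cell types was at 0 in any library. Some values were 1 read, as for the endothelium markers Pecam1 in Het replicate 1 (0.126 RPM) and Cdh5 in Het replicate 2 (0.0899 RPM).

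Cells make cholesterol from acetyl-CoA through mevalonate, squalene and lanosterol, and the genes of the route share a control by sterol level. SCAP carries SREBP transcription factors to the Golgi when sterols are low, INSIG proteins hold them back when sterols are high, and released SREBP acts at sterol regulatory elements with NF-Y and SP1 as partners. In the testis, Leydig cells turn cholesterol into testosterone, Sertoli cells handle lipid from dying germ cells, and germ cells make intermediate sterols in large amounts. Sterols in excess are stored as esters or exported under the control of the LXR receptors.

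**Figure D1:**
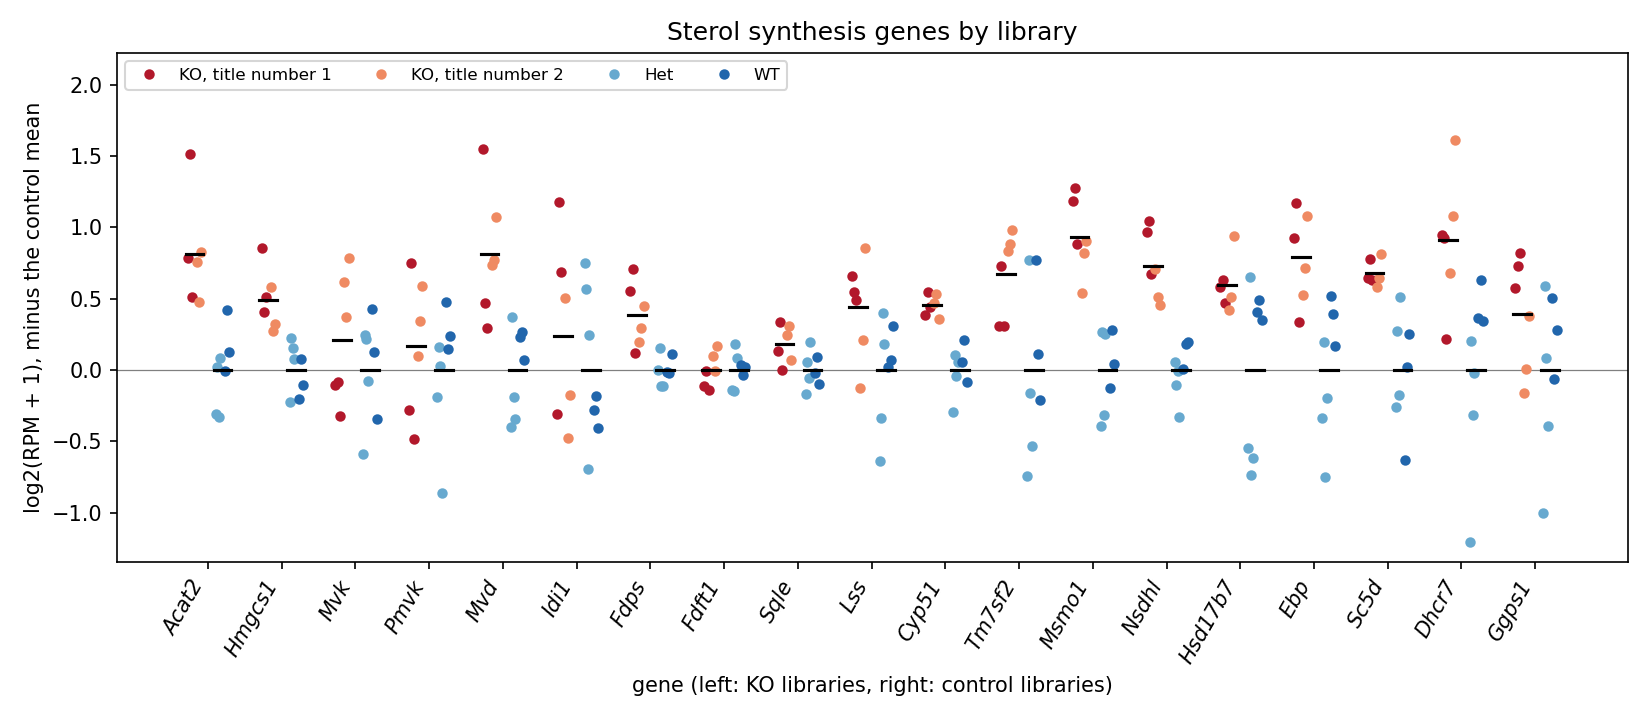
Level of the 19 sterol synthesis genes in each library, in pathway order, as log2(RPM + 1) minus the mean of the 7 controls. Dots are libraries, KO at the left of each gene and control at the right, and horizontal lines are group means. Of these genes 11 rose and none fell, and in 6 of them all 6 libraries labelled KO lie above all 7 controls. Over all tested genes 18.4% rose, and 5.06% had every library labelled KO above every control.

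More of the 35 genes were higher than lower in the libraries labelled KO. A limma model on log2(RPM + 1), adjusted by Benjamini and Hochberg over 16235 tested genes, called 19 members higher and 1 lower at 0.05, while 18.4% of all tested genes rose and 6.18% fell. Members had a median log2 fold change of 0.51, against 0.16 for all tested genes, and 32 of the 35 were above 0, as were 10902 of the 16235 tested genes (67.2%). In 9 members every library labelled KO lay above every control, and in 1 every one lay below, while this held for 5.06% and 2.89% of tested genes. In whole testis, a change in the number of cells of a type and a change in RNA per cell cannot be told apart. Scaling by median-of-ratios moved the median of all tested genes from 0.16 to 0.02 and that of the members to 0.41. It called 16 members higher and 1 lower, and over all genes 1711 rose and 1714 fell, against 2994 and 1003 with the deposited scaling.

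The promoters of the members carry the letters of these regulators' sites to different degrees. RefSeq windows on GRCm38.p6, from 250 bases before to 50 after the annotated start, were matched by symbol for 29 members. On either strand, a sterol regulatory element spelled TCACNCCAC was found in 1 of the 29 (3.45%), against 1.44% of 27025 genes. The NF-Y box CCAAT stood in 22 (75.9%), against 41.1%, and the GC box GGGCGG in 23 (79.3%), against 38.2%. A gene counted if any of its windows held the letters, and the 29 members have 41 windows. The 27025 genes were not limited to those expressed in testis, while all members passed the limit for testing. A match is only a match of letters. The 4 windows printed are those of Hmgcs1, the member with the element, and of Cyp51, Msmo1 and Nsdhl, synthesis genes that kept their call under every alternative tried. Capitals mark CCAAT on either strand (CCAAT or ATTGG) and, in Hmgcs1 alone, the element TCACCCCAC, whose first base lies 137 bases before the start. None of the capital runs overlap, and GC boxes are left in lower case.
Hmgcs1 (chr13:119690101-119690400, plus strand): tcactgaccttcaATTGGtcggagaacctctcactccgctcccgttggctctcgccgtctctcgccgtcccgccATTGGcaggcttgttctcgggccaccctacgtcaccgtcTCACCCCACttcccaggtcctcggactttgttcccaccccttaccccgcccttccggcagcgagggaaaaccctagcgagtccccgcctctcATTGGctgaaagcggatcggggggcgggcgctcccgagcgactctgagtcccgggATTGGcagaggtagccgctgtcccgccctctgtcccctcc
Cyp51 (chr5:4104648-4104947, minus strand): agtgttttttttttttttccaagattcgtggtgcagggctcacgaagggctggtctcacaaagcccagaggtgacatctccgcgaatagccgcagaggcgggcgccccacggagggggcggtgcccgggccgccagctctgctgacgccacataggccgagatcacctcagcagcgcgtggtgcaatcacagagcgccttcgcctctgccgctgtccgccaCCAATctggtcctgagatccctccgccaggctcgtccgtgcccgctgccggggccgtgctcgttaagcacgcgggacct
Msmo1 (chr8:64733529-64733828, minus strand): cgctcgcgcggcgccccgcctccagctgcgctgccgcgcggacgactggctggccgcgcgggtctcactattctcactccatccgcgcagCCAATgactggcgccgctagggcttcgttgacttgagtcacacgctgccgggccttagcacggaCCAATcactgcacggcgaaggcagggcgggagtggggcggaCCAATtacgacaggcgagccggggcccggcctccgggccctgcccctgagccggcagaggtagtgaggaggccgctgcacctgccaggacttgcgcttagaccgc
Nsdhl (chrX:72918271-72918570, plus strand): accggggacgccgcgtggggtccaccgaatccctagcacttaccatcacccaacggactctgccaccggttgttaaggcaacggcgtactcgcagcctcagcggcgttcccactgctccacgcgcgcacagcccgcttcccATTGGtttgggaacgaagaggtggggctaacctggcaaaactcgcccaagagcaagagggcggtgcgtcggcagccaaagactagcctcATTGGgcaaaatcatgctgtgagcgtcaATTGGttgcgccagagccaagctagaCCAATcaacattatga
The NF-Y box occurs 4 times in the Hmgcs1 window, 4 times in Nsdhl, 3 times in Msmo1 and 1 time in Cyp51.

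In the first steps, from acetyl-CoA to farnesyl diphosphate, 4 of 7 genes rose, while 18.4% of all tested genes did. Hmgcs1, which joins acetyl-CoA to acetoacetyl-CoA, had 93.4, 106 and 140.1 RPM as the lowest, median and highest library labelled KO, against 65.6, 81.4 and 90.2 RPM in control (log2 0.49, SE 0.11, limma adjusted p = 0.00234). The 2 groups did not overlap, by a narrow margin. Acat2 (mm10 chromosome 17, 12942890 to 12960747, minus strand), the cytosolic thiolase before it, had 22.5, 27.8 and 47.1 RPM in libraries labelled KO, against 12.4, 16.1 and 21.6 RPM in control (log2 0.81, SE 0.17, limma adjusted p = 0.00179). These groups did not overlap either, and KO replicate 2 stood well above the other KO libraries. Acat2 shares 45.9% of the 50-base stretches of its longest coding transcript with Acat3, so its counts may be split. Mvd, which makes isopentenyl diphosphate, averaged 15.5 ± 5.50 RPM in libraries labelled KO and 8.15 ± 1.92 RPM in control (log2 0.81, SE 0.21, limma adjusted p = 0.0078), with 5 of 6 above all controls. The Mvd call was lost under quantile normalization (log2 0.52, limma adjusted p = 0.092). Mvd lies wholly inside Gm20388 on the other strand, which had a mean of 3250 RPM, and without knowledge of the counting strand their reads cannot be told apart. Fdps, the farnesyl diphosphate synthase, averaged 74.3 ± 11.8 RPM in libraries labelled KO and 56.2 ± 4.08 RPM in control (log2 0.39, SE 0.11, limma adjusted p = 0.0112), but 77.3% of its 50-base stretches recur in Gm43738. Its call was lost under median-of-ratios scaling (log2 0.23). Pmvk had 7.52 to 19.0 RPM in libraries labelled KO and 5.56 to 15.6 RPM in control, and Idi1 2.88 to 11.2 RPM in libraries labelled KO and 2.34 to 8.08 RPM in control. These kinase and isomerase genes and the kinase gene Mvk were not called, with 95% log2 intervals of -0.31 to 0.65 for Pmvk, -0.39 to 0.85 for Idi1 and -0.21 to 0.63 for Mvk. Mvk had 28.1, 23.5 and 31.7 RPM in KO replicates 4 to 6 and 16.7, 16.9 and 14.2 RPM in KO replicates 1 to 3, against 11.6 to 24.6 RPM in control, and the 2 sets of KO libraries did not differ past the threshold (log2 0.76, limma adjusted p = 0.202). With title number as a covariate Mvk passed against control (log2 0.47, limma adjusted p = 0.0426). Idi1 shares 21.3% of its 50-base stretches with Gm13502, and Hmgcs1 13.6% with Gm48342.

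In the steps around squalene, where the route commits to sterols, no gene was called. Fdft1, the synthase, had 311, 340.4 and 384 RPM in libraries labelled KO, against 309, 347 and 389 RPM in control, a log2 difference of -0.00076 with a 95% interval of -0.16 to 0.16. With at least 1649 reads a library, that interval is the narrowest of the 35. Fdft1 overlaps Ctsb (mean 188 RPM) on the other strand by 767 bases. Of the 50-base stretches of Fdft1, 19.9% recur in Ctsb, so the Fdft1 value may hold reads of both. Sqle, the epoxidase, averaged 164 ± 15.4 RPM in libraries labelled KO and 145 ± 12.6 RPM in control and was not called (log2 0.18, limma adjusted p = 0.123). Lss, which closes squalene epoxide into lanosterol, averaged 75.0 ± 17.2 RPM in libraries labelled KO and 55.2 ± 13.1 RPM in control (log2 0.44, limma adjusted p = 0.0585). It passed the threshold when WT replicate 3, Het replicate 3 or KO replicate 4 was left out (log2 0.49, 0.51 and 0.55). With all 13 libraries it also passed in limma-voom on the recovered reads (log2 0.50, limma-voom adjusted p = 0.0357). The span of Lss overlaps that of 4930483K19Rik (mean 45 RPM) on the other strand by 11268 bases. Ggps1, on the branch to geranylgeranyl diphosphate, averaged 8.53 ± 2.48 RPM in libraries labelled KO and 6.47 ± 2.51 RPM in control and was not called (log2 interval -0.14 to 0.93).

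From lanosterol to cholesterol, 7 of 8 genes rose, while 18.4% of all tested genes did. Msmo1 (mm10 chromosome 8, 64718139 to 64733792, minus strand), the methylsterol oxidase, had 88.3, 94.1 and 71.6 RPM in KO replicates 1 to 3 and 56.3, 68.5 and 72.8 RPM in KO replicates 4 to 6. In control it had 29.0, 46.3, 30.6 and 45.8 RPM in Het replicates 1 to 4 and 35.01, 46.8 and 39.6 RPM in WT replicates 1 to 3. All 6 libraries labelled KO were above all 7 controls, and the fold change of RPM + 1 was 1.91 (log2 0.93, SE 0.14, limma adjusted p = 8.2e-05). Nsdhl (mm10 chromosome X, 72918557 to 72958514, plus strand), the next enzyme of the same demethylation, had 71.7, 75.7 and 58.2 RPM in KO replicates 1 to 3 and 59.8, 52.1 and 49.9 RPM in KO replicates 4 to 6. Its controls had 37.7, 33.5, 35.9 and 28.6 RPM in Het and 36.4, 41.2 and 41.7 RPM in WT, again with no overlap (log2 0.73, SE 0.12, limma adjusted p = 0.000243). Cyp51 (mm10 chromosome 5, 4081145 to 4104746, minus strand), the lanosterol demethylase that makes a meiosis-activating sterol in germ cells, had 148, 159 and 169 RPM in libraries labelled KO, against 94.0, 120.1 and 133 RPM in control (log2 0.46, SE 0.086, limma adjusted p = 0.000647). Its rise was modest but tight, with an SD of 8.50 RPM among libraries labelled KO and of 12.7 RPM among controls. Sc5d, the lathosterol oxidase, had 33.5, 34.9 and 39.5 RPM in libraries labelled KO, against 13.9, 22.4 and 31.8 RPM in control (log2 0.68, SE 0.16, limma adjusted p = 0.00359), and the groups did not overlap.

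For Ebp, Dhcr7, Tm7sf2 and Hsd17b7 the 2 groups overlapped. Dhcr7, the reductase of the last step, had 134, 131 and 80.3 RPM in KO replicates 1 to 3 and 111, 147 and 213 RPM in KO replicates 4 to 6, against 29.3, 79.4, 55.2 and 68.1 RPM in Het and 89.1, 107 and 87.9 RPM in WT. It rose against the 7 controls (log2 0.91, SE 0.23, limma adjusted p = 0.00724), but not against WT alone (log2 0.46, limma adjusted p = 0.272). Ebp, the sterol isomerase, averaged 41.2 ± 9.25 RPM in libraries labelled KO and 23.8 ± 7.14 RPM in control (log2 0.79, SE 0.19, limma adjusted p = 0.00462), and was likewise not called against WT alone (log2 0.43, limma adjusted p = 0.208). Tm7sf2, a sterol reductase, averaged 27.1 ± 5.45 RPM in libraries labelled KO and 17.6 ± 7.89 RPM in control (log2 0.67, SE 0.23, limma adjusted p = 0.034). That call is the least stable of the 20. It was lost in 15 of 23 alternatives, 8 of which left out a single library (WT replicate 3, Het replicates 1, 3 and 4, or KO replicates 2, 4, 5 and 6, with log2 0.55 to 0.66). The span of Tm7sf2 overlaps that of 1110014N23Rik (mean 55.9 RPM) on the same strand by 532 bases. None of its 50-base stretches recurs in another gene. Hsd17b7, the ketosterol reductase, averaged 12.7 ± 1.90 RPM in libraries labelled KO and 8.67 ± 3.70 RPM in control and was not called (log2 0.59, limma adjusted p = 0.0747), although it passed without Het replicate 2 (log2 0.70) and with Het alone as control (log2 0.90, limma adjusted p = 0.0122). Het replicates 1, 3 and 4 held 5.18, 4.41 and 4.89 RPM of it, and the other controls 10.5 to 13.1 RPM.

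**Figure D2:**
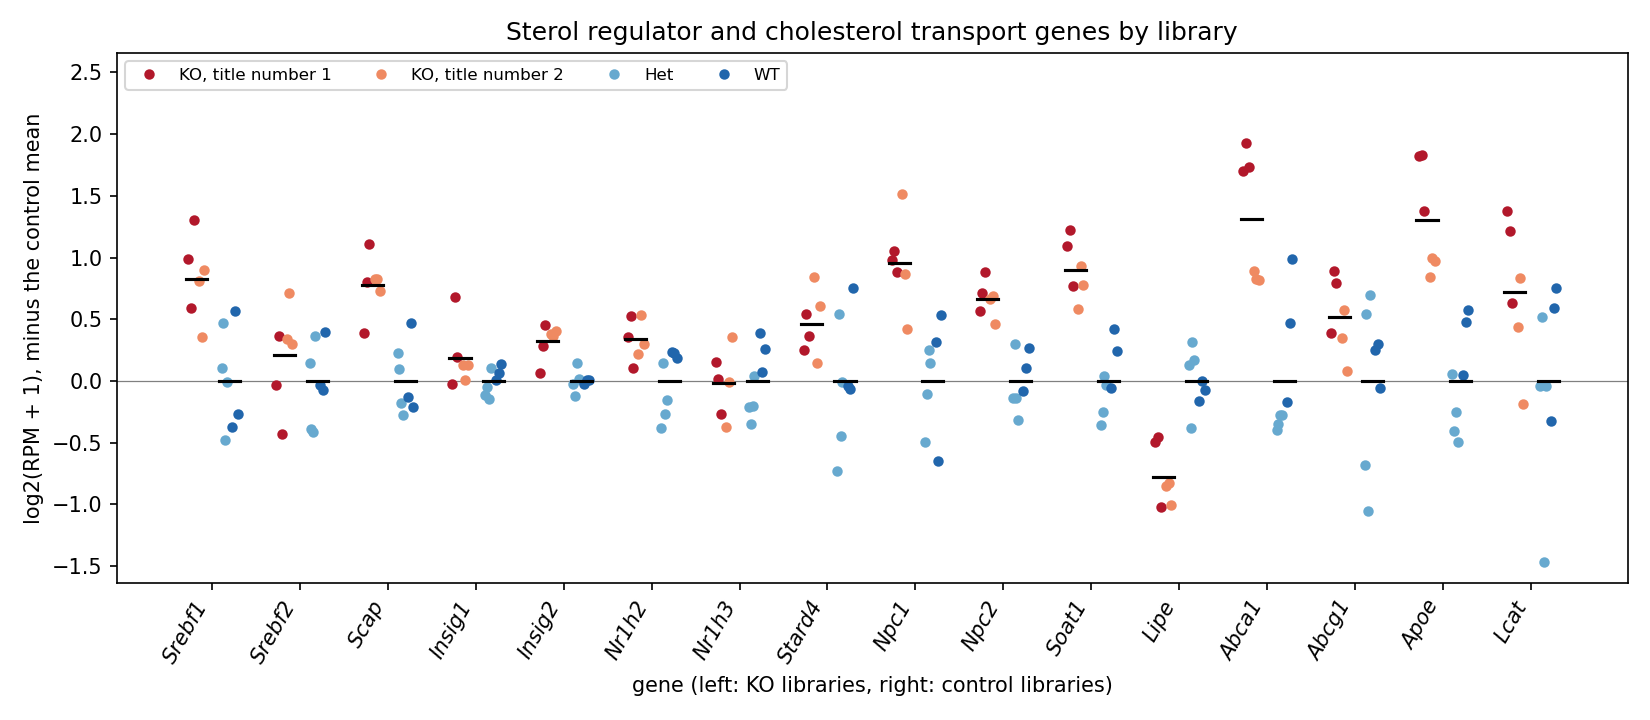
Level of the 7 regulators and 9 uptake, storage and export genes in each library, as log2(RPM + 1) minus the mean of the 7 controls, with KO libraries at the left of each gene. Lipe is the only one whose 6 libraries labelled KO all lie below the controls, and Abca1 and Apoe are higher in KO replicates 1 to 3 than in KO replicates 4 to 6.

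Among the regulators, 3 of 7 rose and none fell, while 18.4% of all tested genes rose and 6.18% fell. Scap, the escort of SREBP, had 48.5, 65.4 and 80.5 RPM in libraries labelled KO, against 30.3, 33.5 and 51.2 RPM in control (log2 0.78, SE 0.14, limma adjusted p = 0.000319). Only KO replicate 1 lay inside the control range. Scap shares 13.1% of its 50-base stretches with 5830462I19Rik, an overlapping gene on the other strand with a mean of 9.01 RPM. Srebf1, the gene for the SREBP more tied to fatty acid synthesis, had 23.7, 33.8 and 46.6 RPM in libraries labelled KO, against 12.8, 18.2 and 27.5 RPM in control (log2 0.83, SE 0.19, limma adjusted p = 0.00292), with KO replicate 5 inside the control range. Srebf2, the gene for the SREBP more tied to cholesterol synthesis, averaged 34.4 ± 9.08 RPM in libraries labelled KO and 29.4 ± 6.78 RPM in control, and its log2 interval was -0.16 to 0.58. Insig2 averaged 87.0 ± 8.08 RPM in libraries labelled KO and 69.1 ± 3.90 RPM in control (log2 0.32, SE 0.089, limma adjusted p = 0.0114), a call lost under median-of-ratios scaling (log2 0.17). Its paralogue Insig1, itself an SREBP target, had 17.8, 19.96 and 29.7 RPM in libraries labelled KO, against 16.2, 18.2 and 20.02 RPM in control, and was not called (log2 0.19, interval -0.11 to 0.48). The LXR genes were not called, although Nr1h2 passed with Het alone as control (log2 0.50, limma adjusted p = 0.0153). Nr1h2 had 30.3 to 41.0 RPM in libraries labelled KO and 21.3 to 33.2 RPM in control, a log2 change of 0.34 (interval 0.061 to 0.62). Nr1h3 had 10.4 to 17.9 RPM in libraries labelled KO and 10.6 to 18.3 RPM in control, a log2 change of -0.019 (interval -0.38 to 0.34).

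Over all 6 libraries labelled KO against the 7 controls, the export genes Abca1 and Apoe had the largest log2 changes of the 35. In the KO libraries of title number 2 against the same controls Dhcr7 had the largest, at 1.12, and Abca1 the sixth. Apoe (mm10 chromosome 7, 19696109 to 19699166, minus strand), the apolipoprotein that takes up exported cholesterol, had 864, 869.8 and 635 RPM in KO replicates 1 to 3 and 439, 488 and 479 RPM in KO replicates 4 to 6. In control it had 254, 184, 205 and 173 RPM in Het and 252, 341 and 364 RPM in WT. No library labelled KO overlapped the controls, and the fold change of RPM + 1 was 2.47 (log2 1.30, SE 0.18, limma adjusted p = 3.63e-05). Abca1 (mm10 chromosome 4, 53030787 to 53159895, minus strand), the pump that loads cholesterol onto apolipoproteins and a known LXR target, had 161, 189 and 165 RPM in KO replicates 1 to 3 and 91.7, 87.5 and 87.3 RPM in KO replicates 4 to 6. In control it had 37.0, 38.4, 40.3 and 40.3 RPM in Het and 43.5, 68.3 and 98.4 RPM in WT, so WT replicate 3 lies above KO replicates 4 to 6. The fold change was 2.49 (log2 1.32, SE 0.23, limma adjusted p = 0.000279). Abcg1, a pump that passes cholesterol to high-density lipoprotein, was low, with 2.41 to 4.97 RPM in libraries labelled KO and 0.551 to 4.21 RPM in control, and was not called (log2 interval -0.082 to 1.11). Lcat, which esterifies cholesterol on lipoproteins, averaged 7.13 ± 2.94 RPM in libraries labelled KO and 4.15 ± 2.16 RPM in control and was not called (log2 0.72, limma adjusted p = 0.114). It lies wholly within the span of Gm16156 on the other strand.

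Genes that move cholesterol out of lysosomes and into esters also rose. Npc2 (mm10 chromosome 12, 84754560 to 84773112, minus strand), the soluble carrier of lysosomal cholesterol, had 85.7, 99.7 and 115 RPM in libraries labelled KO, against 49.7, 58.6 and 76.4 RPM in control (log2 0.66, SE 0.11, limma adjusted p = 0.000198), with no overlap. Npc1, the membrane protein that receives it, averaged 11.7 ± 3.18 RPM in libraries labelled KO and 5.64 ± 1.88 RPM in control (log2 0.95, SE 0.23, limma adjusted p = 0.00435), with 5 of 6 above all controls. The span of Npc1 overlaps that of 3110002H16Rik (mean 23 RPM) on the other strand by 305 bases. Of the 50-base stretches of Npc1, 8.12% recur in Rmc1. Soat1 (mm10 chromosome 1, 156428108 to 156474328, minus strand), the main cholesterol esterifying enzyme of steroid-making cells, had 199, 218 and 159 RPM in KO replicates 1 to 3 and 139, 178 and 160.0 RPM in KO replicates 4 to 6. Its controls had 72.2, 77.7, 95.3 and 90.8 RPM in Het and 89.2, 124 and 110.3 RPM in WT, all below the libraries labelled KO (log2 0.90, SE 0.12, limma adjusted p = 3.33e-05). Stard4, a cytosolic sterol carrier, averaged 7.69 ± 1.56 RPM in libraries labelled KO and 5.60 ± 2.40 RPM in control and was not called (log2 interval -0.039 to 0.95).

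Lipe was the only member that fell. It encodes hormone-sensitive lipase, which splits cholesterol esters in steroid-making cells and has a separate testis form in haploid germ cells. Lipe (mm10 chromosome 7, 25379527 to 25398710, minus strand) had 291, 299.6 and 202 RPM in KO replicates 1 to 3 and 227, 231 and 204 RPM in KO replicates 4 to 6. In control it had 449, 316, 510.3 and 462 RPM in Het and 367, 412 and 391 RPM in WT, and every library labelled KO was below every control. The fold change of RPM + 1 was 0.584 (log2 -0.78, SE 0.11, limma adjusted p = 5.36e-05), and the call held under every alternative tried. All 8 markers of elongating spermatids and 2 of 6 markers of round spermatids, both haploid germ cells, fell in the same libraries. Over all tested genes 6.18% fell. The part of these cells in the Lipe value was not tested. The table has 1 value per gene, so the testis form and the other form cannot be told apart. Per kilobase of its longest coding transcript, Lipe had 65.3 RPM in libraries labelled KO and 112 RPM in control. On that scale only Apoe was higher among members in control, at 447 RPM per kilobase in libraries labelled KO and 179.9 in control. Fdft1 stood at 92.7 in libraries labelled KO and 92.8 in control, and the lowest member, Abcg1, at 0.631 in libraries labelled KO and 0.425 in control.

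**Figure D3:**
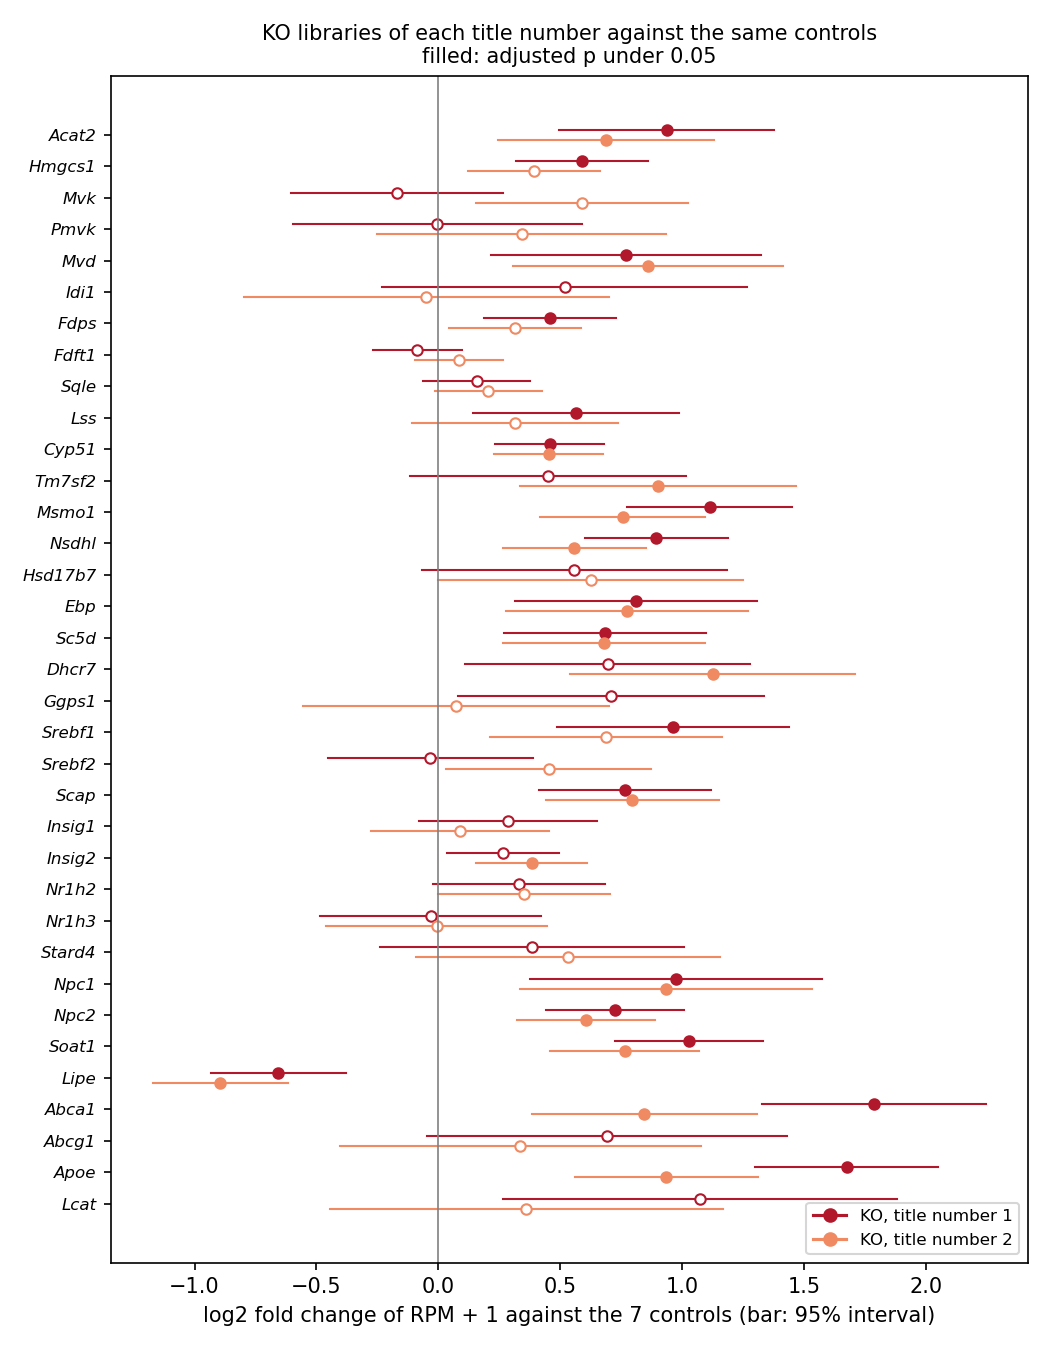
Log2 fold change of RPM + 1 with its 95% interval for the KO libraries of title number 1 (n = 3) and of title number 2 (n = 3), each against the same 7 controls. Filled points passed the limma threshold of 0.05, as Apoe did at 1.67 in title number 1 and 0.93 in title number 2, and Lipe at -0.66 in title number 1 and -0.89 in title number 2.

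The KO libraries of both title numbers gave many of these calls, against the same controls, which they share. Those of title number 1 had 17 members higher and 1 lower, with 17.0% and 5.74% of all tested genes called. Those of title number 2 had 16 higher and 1 lower, with 7.80% and 4.64% of all tested genes called. These counts rest on few libraries. For title number 1, 11 members rose without KO replicate 2. For title number 2, 7 rose without KO replicate 4 or 5 and under median-of-ratios scaling, and 8 rose without KO replicate 6. No count over all tested genes was made in these fits, so the drops cannot be set beside a share of all genes. Apoe differed from control by a log2 of 0.93 in title number 2 and 1.67 in title number 1, and Abca1 by 0.84 in title number 2 and 1.79 in title number 1. The difference between the 2 sets of KO libraries was tested directly, and no member passed (limma adjusted p at least 0.137), while 0.0801% of tested genes were higher and 0.0986% lower in title number 2. At an unadjusted p under 0.05, 3 members differed in limma (1 higher and 2 lower in title number 2) and 4 in limma-voom on the recovered reads, as did 1999 and 2005 of the 16235 tested genes. With 3 libraries a side, the interval for Abca1 was -1.48 to -0.40 and that for Apoe -1.18 to -0.30 on the log2 scale.

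Within title number 2, where 3 libraries labelled KO face 6 controls, 12 members rose and 1 fell, with 5.36% and 3.97% of tested genes called. Apoe (log2 0.94, limma adjusted p = 0.00527), Scap (log2 0.83, limma adjusted p = 0.00417) and Lipe (log2 -0.87, limma adjusted p = 0.00029) were among them. Hmgcs1, Fdps, Tm7sf2, Ebp, Sc5d, Srebf1 and Npc1 lost their call there, with log2 changes of 0.35, 0.31, 0.78, 0.72, 0.64, 0.71 and 0.85. Title number 1 has only 1 control, Het replicate 1, so no test was made within it.

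Within the control, most of these genes averaged lower in Het than in WT, short of the threshold. No member passed the test of Het against WT, and neither did any tested gene (0.00% in either direction). At an unadjusted p under 0.05, limma had 7 members and limma-voom 8, all lower in Het, and 957 and 897 of the 16235 tested genes. Of the 35 members 7 had a log2 difference above 0, as did 6932 of the 16235 tested genes. The median was -0.23 on the log2 scale in Het against WT, and -0.044 over all tested genes. Het replicate 1 was the lowest control in 14 of 35 members, a count that was not made over all tested genes. Dhcr7 averaged 58.0 ± 21.5 RPM in Het (n = 4) and 94.7 ± 10.8 RPM in WT (n = 3), and Abca1 39.0 ± 1.62 RPM in Het and 70.1 ± 27.5 RPM in WT. Against WT alone, 11 members rose and 1 fell, with 6.05% and 3.34% of all tested genes called. Acat2, Mvd, Fdps, Tm7sf2, Ebp, Dhcr7, Insig2 and Npc1 were not called there. Against Het alone, 21 members rose and 1 fell, with 16.9% and 5.15% of all tested genes called.

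**Figure D4:**
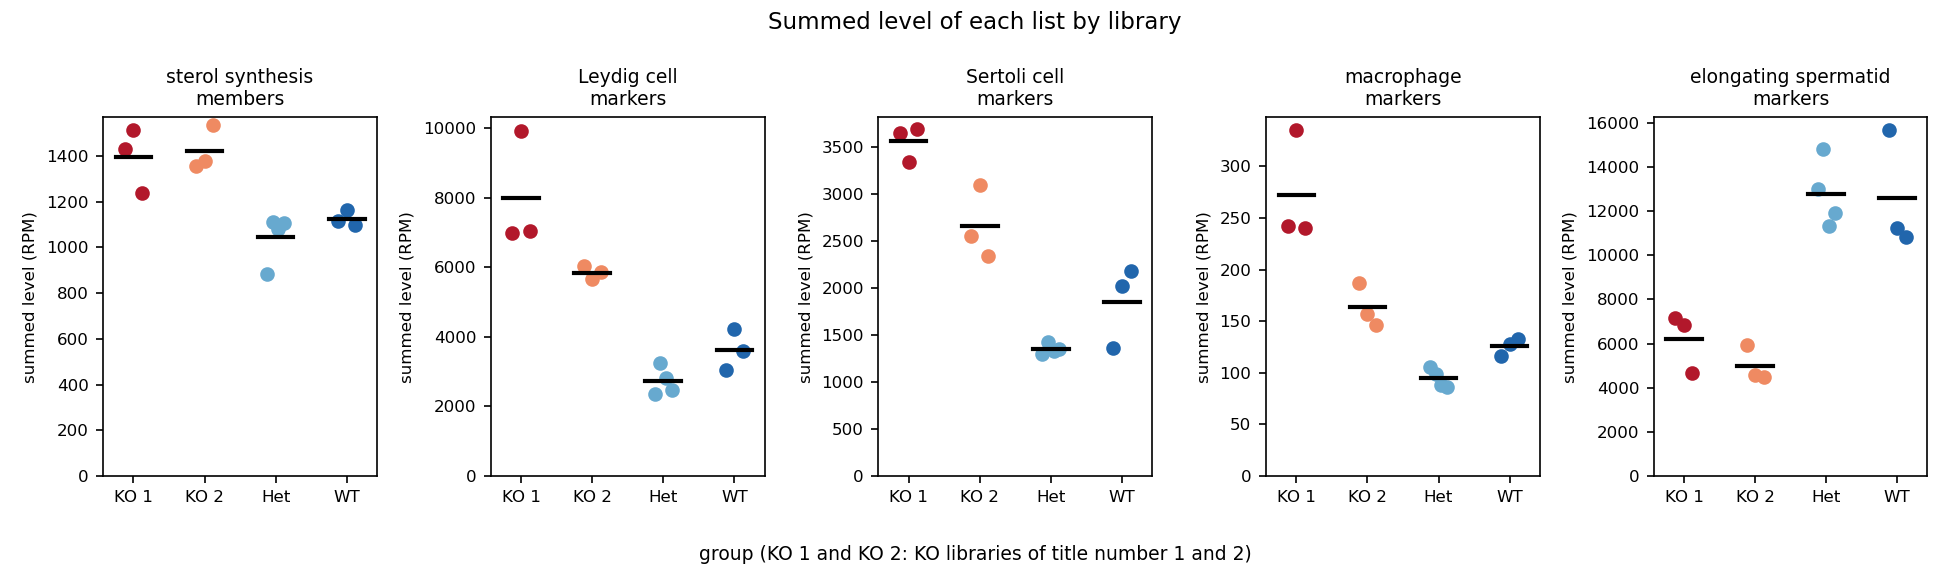
Summed level in RPM of the 19 sterol synthesis genes and of marker lists for Leydig cells, Sertoli cells, macrophages and elongating spermatids, for each library. KO 1 and KO 2 are the libraries labelled KO of title number 1 and 2, dots are libraries and lines are group means. The 6 libraries labelled KO lie above the 7 controls in the first 4 lists and below them in the last. Most of the Sertoli cell sum is Clu.

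Marker genes of cell types moved in the same libraries. Over all tested genes 18.4% rose and 6.18% fell. Of 8 Leydig cell markers 7 rose, and their summed level was 5655 to 9921 RPM in libraries labelled KO against 2351 to 4223 RPM in control. Of 8 Sertoli cell markers 6 rose, with sums of 2337 to 3693 RPM in libraries labelled KO and 1299 to 2177 RPM in control. Most of that sum was Clu, with 2116 to 3351 RPM in libraries labelled KO and 1158 to 1978 RPM in control. Of 8 macrophage markers 6 rose, with sums of 146 to 335 RPM in libraries labelled KO and 86.2 to 133 RPM in control. All 8 elongating spermatid markers fell, with a median log2 change of -1.12, to sums of 4502 to 7135 RPM in libraries labelled KO, against 10846 to 15682 RPM in control. Among round spermatid markers 2 of 6 fell, with sums of 1386 to 1622 RPM in libraries labelled KO and 1591 to 1795 RPM in control. Among pachytene spermatocyte markers 1 of 6 fell, with sums of 8050.4 to 9115 RPM in libraries labelled KO and 8410.1 to 9823 RPM in control. Ldhc made up most of it, with 5664 to 6493 RPM in libraries labelled KO and 5864 to 6927 RPM in control. For peritubular cells 1 of 5 markers rose, with sums of 73.1 to 145 RPM in libraries labelled KO and 46.8 to 116 RPM in control. For endothelium 2 of 5 rose, with sums of 26.4 to 47.8 RPM in libraries labelled KO and 6.61 to 32.2 RPM in control. The 19 synthesis genes summed to 1239.9 to 1536 RPM in libraries labelled KO and 885 to 1164 RPM in control. The part of these cell types in the members' values was not tested. Leydig, Sertoli and macrophage sums were lower in each KO library of title number 2 than in each of number 1, and so were Apoe and Abca1. The markers of a list did not all move so. Of the 8 Leydig cell markers, 3 had a log2 difference above 0 in title number 2 against number 1, and none was called. Insl3, a large part of the Leydig sum, had 3258, 4837 and 3017 RPM in KO replicates 1 to 3. In KO replicates 4 to 6 Insl3 had 1941, 2171 and 2108 RPM. Macrophage sums were 146 to 187 RPM in title number 2 and 240.1 to 335 RPM in title number 1.

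Of 46 further sterol genes listed from general knowledge, 40 were tested, 19 rose and none fell, with a median log2 change of 0.40, against 0.16 over all tested genes. Of all tested genes 18.4% rose and 6.18% fell. Within title number 2 the number that rose was 6, against WT alone 6 and against Het alone 19, while 5.36%, 6.05% and 16.9% of all tested genes rose. In the KO libraries of title number 2 against all controls it was 8, while 7.80% of all tested genes rose. Under quantile normalization it was 11, while 1460 of the 16235 tested genes rose. In synthesis and its branches 5 of 9 tested genes rose. Acly, which makes cytosolic acetyl-CoA, was at 245 ± 27.4 RPM in libraries labelled KO and 128 ± 17.9 RPM in control (log2 0.93, SE 0.097, limma adjusted p = 2.23e-06), with no overlap. Erg28, a scaffold of the demethylation enzymes, rose by 0.84 on the log2 scale, Pdss1 of ubiquinone synthesis by 0.98 and Dhdds of dolichol synthesis by 0.42. In control of the pathway 3 of 10 rose: Mbtps1, a protease that cuts SREBP, by 0.37, Erlin2 by 0.27 and Nfyc, an NF-Y subunit, by 0.70. Dhdds lost its call without WT replicate 1, any 1 Het replicate or any 1 of KO replicates 1 to 4 (log2 0.36 to 0.44), Erlin2 without Het replicate 1 or 2 or KO replicate 1 (0.23 to 0.25) and Mbtps1 without KO replicate 5 (0.32).

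In uptake, storage, transport and export 11 of 21 tested genes rose, while 18.4% of all tested genes did. Lrp1, a receptor for APOE, was at 53.6 ± 16.3 RPM in libraries labelled KO and 24.2 ± 8.47 RPM in control (log2 1.13). The cholesterol ester hydrolases Lipa of lysosomes and Nceh1 rose by 1.30 and 1.03 on the log2 scale. The sterol carriers Stard5, Stard3 and Gramd1a rose by 1.20, 0.63 and 0.72. Apoc1, which lies beside Apoe in a gene cluster, rose by 1.15, and the phospholipid transfer protein gene Pltp by 0.96. The transporters Abca2 and Abcg4 rose by 0.76 and 1.09, although Abcg4 was at 0 in at least 1 library and averaged 2.65 ± 2.09 RPM in libraries labelled KO and 0.514 ± 0.507 RPM in control. Abca2 lost its call without Het replicate 1 or 4 or KO replicate 1 or 3 (log2 0.62 to 0.73). Abcg4 lost it without WT replicate 3, Het replicate 3 or 4, or KO replicate 2, 3 or 5 (0.90 to 1.07). Erg28, Dhdds, Mbtps1, Erlin2, Nfyc, Lrp1, Nceh1, Stard3, Gramd1a, Pltp, Abca2 and Abcg4 all lost their call both within title number 2 and against WT alone. Nceh1 was at a log2 of 0.59 within title number 2 (limma adjusted p = 0.294) and 1.08 against WT alone (limma adjusted p = 0.0651). Pdss1 lost its call within title number 2 (limma adjusted p = 0.0978).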

How the data were processed

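RNA of 13 whole testes was measured. Per the labels' protocols, Smart-seq2 libraries were made from about 2 ng of total RNA by 11 PCR cycles. The submitters' processing notes name FastQC 0.11.8, Trim Galore 0.6.6 and mm10. The aligner, the counting program and any use of strand were not given in the sources used here. The values deposited by the authors are log2 RPM. In each library the lowest deposited value equals 0.9 read, and at least 99.96% of values came out as whole reads, to within 0.01 read. That lowest value was read as 0. The libraries hold PCR copies without molecular identifiers, so read numbers carry counting error only as far as reads are independent.

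The 16235 genes that averaged 1 RPM or more over the 13 libraries, all 35 members included, were tested with limma 3.58.1 in R 4.3.3, on log2(RPM + 1) with a mean-variance trend, 2-sided, Benjamini-Hochberg adjusted, at 0.05. Fold changes are of RPM + 1 and understate changes of low genes. Groups came from the labels. The members, lists and tests were chosen with earlier results of these data known. Named genes were all members, further sterol genes past the threshold in KO against control, and the targeted gene. Some genes that meet this rule are not reported here. Alternatives were another pseudocount, no filter, other scalings, limma-voom on recovered reads (which called 3953 genes), title number, subsets of controls and leaving out each library. Same-numbered replicates correlated by -0.083 to 0.13 in their deviations, with 1 of 10 pairs above 0.1, so the numbers were not taken as pairs. Gene positions were taken from the deposited table, transcripts those of GENCODE M21, and promoters those of RefSeq on GRCm38.p6, the build that mm10 also names.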

Additional observations from a re-analysis of the deposited data

Results flagged for a closer look

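The 70 groups tested were KO (n = 6) and control (n = 7) for each of the 35 members. In 3 of them, 1 library stood apart from the rest of its group by more than the 95% limit of Dixon's test. Chance passes that limit in about 1 in 20 groups. Acat2 was at 47.1 RPM in KO replicate 2, while the next library labelled KO had 28.9 RPM and the lowest 22.5 RPM, so the gap was 0.738 of the group's range. Insig1 was at 29.7 RPM in the same library, where the next had 20.9 RPM and the lowest 17.8 RPM (0.736 of the range). Hsd17b7 was at 16.3 RPM in KO replicate 6, where the next had 12.9 RPM and the lowest 11.1 RPM (0.646 of the range). Acat2 kept its call without KO replicate 2, and Insig1 and Hsd17b7 were not called with or without these libraries. Acat2 shares sequence with Acat3, and its counts may be split between them.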

How the results depend on the processing

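Of the 20 members called in KO against control, 9 kept the call under all 23 alternatives (Cyp51, Msmo1, Nsdhl, Scap, Npc2, Soat1, Lipe, Abca1 and Apoe), 19 kept it without any 1 library, and none turned round. Members that rose numbered 19, 12 within title number 2, 11 against WT only and 21 against Het only. Leaving out 1 library gave 18 to 20. Over all tested genes 2994 rose and 1003 fell. These became 1711 and 1714 under median-of-ratios scaling, 1460 and 1532 under quantile normalization, 870 and 645 within title number 2, and 982 and 543 against WT only. For KO title number 1 the 17 members that rose became 11 under quantile normalization and 11 to 18 without 1 library, the lowest without KO replicate 2. For KO title number 2 the 16 became 9 with no filter, 7 under median-of-ratios scaling, 8 under quantile normalization and 7 to 17 without 1 library, the lowest without KO replicate 4 or 5 (8 without KO replicate 6). No count over all tested genes was made in these fits of each title number, so these drops have no share of all genes beside them. The cause was not tested. With the replicate number as a replicate block, where no control shares a number with KO replicates 5 and 6, 16 members rose and 1 fell, and Tm7sf2, Dhcr7 and Insig2 lost the call. The numbers are not known to mark pairs. Over all tested genes, the deviations of Het replicate 1 from its group mean correlated by 0.11 to 0.13 with those of KO replicates 1 to 3, which share its title number, and by -0.13 to -0.096 with those of KO replicates 4 to 6. Deviations from a group mean cancel out over the group, so these 2 ranges are not independent. Pairs of title number 2 ranged as widely, with 0.18 for WT replicate 1 and Het replicate 2 and -0.11 for WT replicate 3 and Het replicate 2. Promoter windows that end at the start site held the NF-Y box in 22 of 29 members and the GC box in 22. Members at a few RPM, such as Abcg1 with as few as 4 reads in a library, are limited by depth.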
